A study of Mus musculus with 6 samples.

Results

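The tachykinin system was followed through 7 genes in the hippocampus of mice that had received substance P (SP) under the skin. The genes are the ligand precursors *Tac1* and *Tac2*, the neurokinin receptors *Tacr1* and *Tacr3*, and the peptidases *Mme*, *Ece1* and *Ece2*. They were chosen by gene name for a role in making, sensing or breaking down tachykinins, with earlier results of these data known. They are 7 of the 55421 genes listed in the deposited table. RNA was sequenced from 3 male wild-type C57BL/6N mice injected subcutaneously with SP (10 µM, 100 µL) on 14 consecutive days and from 3 such mice given the same volume of saline, called vehicle. All were aged 8 to 10 weeks and carried no transgene, and each mouse gave 1 stranded mRNA library of whole hippocampus. The comparison asks whether chronic peripheral SP was accompanied by a difference in the hippocampal transcripts of its own signaling system.

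Tachykinins are small peptides cut from longer precursors and amidated at their carboxyl end. *Tac1* encodes SP together with neurokinin A, and *Tac2* encodes neurokinin B in mice. SP acts preferentially on the NK-1R, the product of *Tacr1*, and neurokinin B on the receptor encoded by *Tacr3*; both couple to Gq proteins and phospholipase C. Released peptide is cleaved at the cell surface by neprilysin, the product of *Mme*, while endothelin converting enzymes can degrade SP inside endosomes after it has entered the cell with its receptor. In the hippocampus, tachykinins and their receptors are found mainly in sparse neurons, many of them GABAergic.

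The bases that encode the peptides are shown because the counts were summed over a whole gene and do not separate its products. They were read from the annotated coding sequences of GENCODE M21 on GRCm38, plus strand, 5′ to 3′. Capitals mark the 15 bases for the 5 residues with which each tachykinin ends before its amide, and a search for that shared end followed by glycine and a pair of basic residues located them.
substance P, *Tac1*, chr6:7556732-7556764: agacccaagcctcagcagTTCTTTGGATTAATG
neurokinin A, *Tac1*, chr6:7559101-7559130: cataaaacagattccTTTGTTGGACTAATG
neurokinin B, *Tac2*, chr10:127729116-127729145: gacatgcacgacttcTTTGTGGGACTTATG
The SP stretch lies in exon 3 and the neurokinin A stretch in exon 6 of the 7 exons of the longest coding *Tac1* transcript that holds it. Of the 15 capital bases, 12 are alike between SP and neurokinin A, 13 between neurokinin A and neurokinin B, and 10 between SP and neurokinin B. Of 5 annotated *Tac1* transcripts, 4 have an exon that holds the SP stretch and 2 have one that holds the neurokinin A stretch. A *Tac1* count can therefore come from transcripts with or without the neurokinin A part, and injected SP, a peptide, adds nothing to it.

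The libraries held between 22349941 and 27605937 counts. Levels are given as CPM, that is, counts scaled to normalized library size. At this depth a count of 0 allows up to 0.109 to 0.135 CPM, from 3 counts per library and for counting error only. Markers of hippocampal principal cells were present in each library, with a summed level of 1904 to 1961 CPM in vehicle and 2028 to 2249 CPM in SP over 9 genes. In this list 8 of 9 genes had a log2 fold change above 0, 0 were called and 5 had an unadjusted p under 0.05 (*Spink8*, *Fibcd1*, *Grik4*, *Cpne4* and *C1ql2*). *Slc17a7*, a vesicular glutamate transporter, was the most abundant at 1274 to 1490 CPM, and *Spink8*, a marker of CA1, had 13.4 to 14.2 CPM in vehicle against 18.1 to 21.6 CPM in SP (FDR 0.242, edgeR's quasi-likelihood test). A pair of SP libraries stood apart. Library SP 1 had 169 CPM of 6 choroid plexus markers, where the other 5 libraries had 2777 to 4693 CPM; 0 of these were called, and *Kl* and *Clic6* had an unadjusted p under 0.05. Library SP 2 had 3590 CPM of 7 oligodendrocyte markers against 2145 to 2686 CPM in the others, and 81.4 CPM of 8 pineal gland markers against 1.78 to 2.92 CPM. The share of the tissue that each dissection took was not measured.

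None of the 7 genes passed FDR < 0.1 and |log2FC| > 0.3, the thresholds for a differentially expressed gene (DEG), in edgeR's quasi-likelihood test with the replicate number as a block. The count was also 0 with limma-voom and with DESeq2. With the block, DESeq2 gave no FDR for *Tac1*, *Tac2*, *Tacr1* and *Tacr3*, so these could not be called there. Of all 17069 genes tested with edgeR, 5 passed, or 0.0293%. An unadjusted p under 0.05 was found for 1 of the 7 genes, *Tacr1*, and for 10.1% of all tested genes, 5.59% being lower in SP. *Tacr1* and *Mme* were lower in all 3 SP libraries than in any vehicle library, whereas *Tac1*, *Tac2* and *Tacr3* were lowest in library SP 2 and had at least 1 SP library within or above the vehicle values. *Ece1* and *Ece2* were at about the same level in both groups. The plot of the 7 genes by library shows these 3 patterns.

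**Figure D1:**
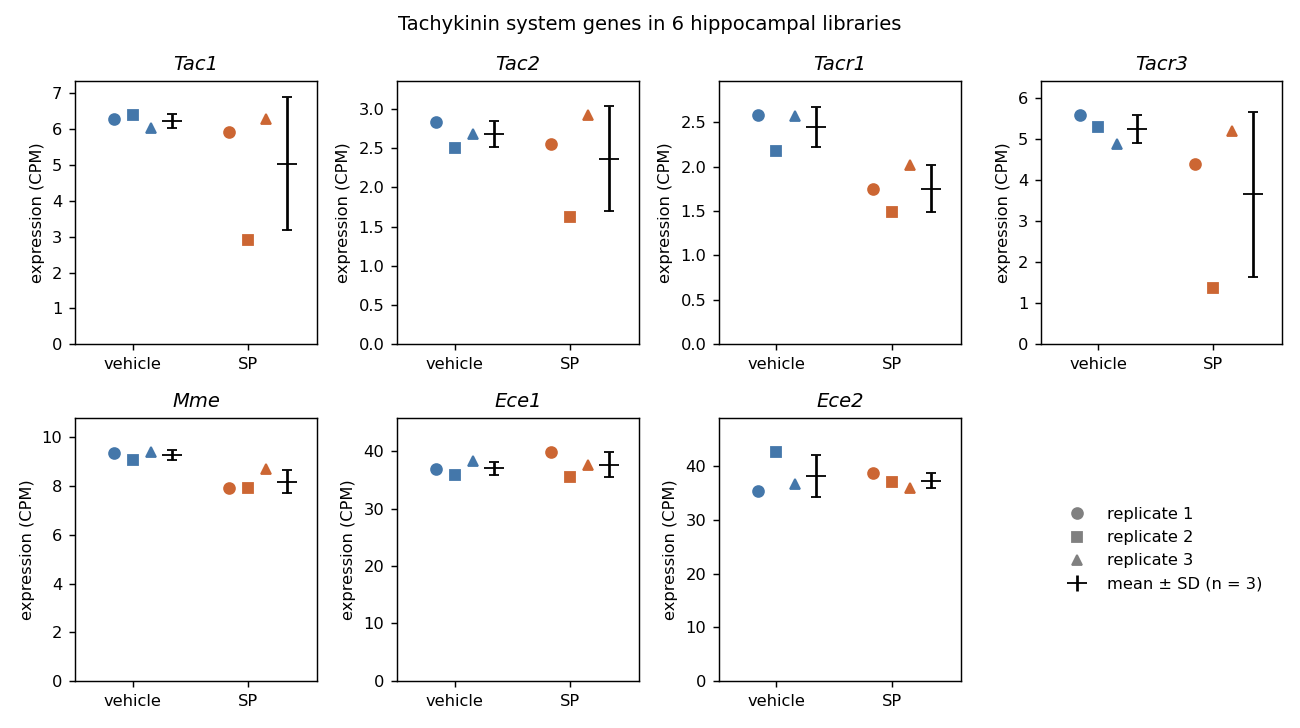
Expression in CPM of the 7 genes in each library, with vehicle in blue, SP in orange and a marker shape for each replicate number; black bars give the mean ± SD over 3 mice. *Tac1*, *Tac2* and *Tacr3* are lowest in SP replicate 2, *Tacr3* is also under the vehicle points in SP replicate 1, and all SP points of *Tacr1* and *Mme* lie under the vehicle points.

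Of the ligand precursors, *Tac1* (ENSMUSG00000061762, chromosome 6 of GRCm38 from 7554879 to 7565834) had 6.27, 6.39 and 6.02 CPM in vehicle 1, 2 and 3. In SP 1, 2 and 3 it had 5.92, 2.91 and 6.29 CPM, from 139, 70 and 140 counts. The groups overlapped: SP 3 lay within the vehicle values and SP 1 just under them, while SP 2 was lowest. The means were 6.23 ± 0.186 CPM and 5.04 ± 1.86 CPM (SD, n = 3 mice each), so that the coefficient of variation was 2.98% in vehicle and 36.8% in SP. SP relative to vehicle differed by -0.35 on the log2 scale (standard error 0.226, 95% interval -0.88 to 0.18, FDR 0.641). Without library SP 2, in a fit without the block that was chosen after its values were seen, it was -0.029. A halving or doubling of *Tac1* lies outside the 95% interval of the fit with all 6 libraries, which does not exclude it in general. The log2 fold change was -0.50 (standard error 0.273) without replicate 1 and -0.59 (standard error 0.259) without replicate 3. Within replicate numbers 1, 2 and 3 the log2 ratio of SP to vehicle was -0.083, -1.14 and 0.062.

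*Tac2* (ENSMUSG00000025400, chromosome 10 from 127724478 to 127731768) was measured at 2.84, 2.51 and 2.68 CPM in vehicle and at 2.56, 1.62 and 2.92 CPM in SP 1, 2 and 3. SP 3 was the highest of all 6 libraries and SP 2 the lowest, so that the groups overlapped. The log2 fold change of *Tac2* was -0.20 (standard error 0.204, 95% interval -0.68 to 0.28, FDR 0.784). It was 0.032 without library SP 2, which is the opposite sign. The counts behind it were small, from 39 in SP 2 to 74 in vehicle 3.

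Of the receptors, *Tacr1* (ENSMUSG00000030043, chromosome 6 from 82402334 to 82560104), which encodes the NK-1R, had the lowest unadjusted p of the 7 genes in edgeR with the block, though not in every alternative. It was measured at 2.58, 2.18 and 2.58 CPM in vehicle and at 1.75, 1.49 and 2.02 CPM in SP 1, 2 and 3. Every SP library was under every vehicle library, with 36 to 45 counts in SP and 54 to 71 in vehicle. The means were 2.45 ± 0.228 CPM and 1.75 ± 0.263 CPM (SD, n = 3 mice each), and the fitted fold was 0.716. On the log2 scale SP differed from vehicle by -0.48 (standard error 0.190, 95% interval -0.93 to -0.04, unadjusted p 0.0370 and FDR 0.462 by edgeR's quasi-likelihood test). Within replicate numbers 1, 2 and 3 the log2 ratio of SP to vehicle was -0.56, -0.55 and -0.35. The difference did not pass the threshold over all tested genes. With DESeq2 and the block the unadjusted p of *Tacr1* was 0.253, and in edgeR without replicate 1, 2 or 3 it was 0.114, 0.103 or 0.0628. Without library SP 2 alone the log2 fold change was -0.38, with an unadjusted p of 0.0920.

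*Tacr3* (ENSMUSG00000028172, chromosome 3 from 134829007 to 134934579) had 5.59, 5.29 and 4.90 CPM in vehicle and 4.39, 1.37 and 5.21 CPM in SP 1, 2 and 3. SP 2 held 33 counts where the other libraries held 103 to 135, SP 1 was also under every vehicle library, and SP 3 lay within the vehicle values. The coefficient of variation in SP, 55.3%, was the highest of the 7 genes. The log2 fold change of *Tacr3* was -0.63 (standard error 0.335, 95% interval -1.42 to 0.15, unadjusted p 0.0994 and FDR 0.570 by edgeR's quasi-likelihood test). The unadjusted p of *Tacr3* was 0.0660 with DESeq2 and the block, 0.0122 in edgeR with no filter on low counts and 0.0201 without replicate 3, each lower than that of *Tacr1* under the same setting. Within replicate numbers 1, 2 and 3 the log2 ratio was -0.35, -1.95 and 0.089. Without library SP 2 it came to -0.13, and without replicate 3 to -1.06.

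Among the peptidases, *Mme* (ENSMUSG00000027820, chromosome 3 from 63241537 to 63386030) had 9.37, 9.05 and 9.40 CPM in vehicle and 7.93, 7.93 and 8.71 CPM in SP 1, 2 and 3. All SP values were under all vehicle values, and SP 2 did not stand apart from SP 1. The means were 9.27 ± 0.191 CPM and 8.19 ± 0.453 CPM (SD, n = 3 mice each), and the fitted fold was 0.883. The corresponding log2 value, -0.18 (standard error 0.0979, 95% interval -0.41 to 0.05, FDR 0.581), is under the minimum size for a DEG. The log2 ratios within replicate numbers 1, 2 and 3 were -0.24, -0.19 and -0.11.

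*Ece1* (ENSMUSG00000057530, chromosome 4 from 137862237 to 137965229) had 35.9 to 38.2 CPM in vehicle and 35.5 to 39.8 CPM in SP. Its log2 fold change was 0.023 (95% interval -0.12 to 0.17, FDR 0.927). *Ece2* (ENSMUSG00000022842, chromosome 16 from 20629828 to 20646485) had 35.3, 42.7 and 36.8 CPM in vehicle and 38.9, 37.1 and 36.1 CPM in SP, a log2 fold change of -0.032 (95% interval -0.21 to 0.15, FDR 0.920). For both enzymes the groups overlapped, and the intervals of the fold ran from 0.918 to 1.13 for *Ece1* and from 0.862 to 1.11 for *Ece2*. *Ece2* shares 2937 of its 5110 exon bases with *Gm49333*, a gene on the same strand that took 31 counts in vehicle 3 and 0 in the other libraries. Counts of *Ece2* are therefore uncertain in every library, and how reads were divided between these genes was not measured.

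**Figure D2:**
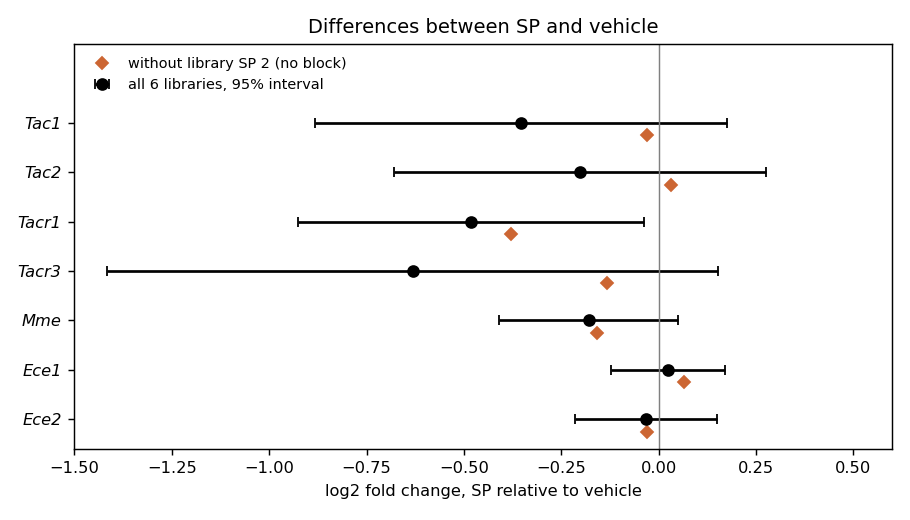
Log2 fold change of the 7 genes, SP relative to vehicle, from edgeR with all 6 libraries (black points, bars for the 95% interval) and without library SP 2 in a fit without the block (orange diamonds). The interval of *Tacr1* lies under 0, and those of the other 6 genes span 0. The diamonds of *Tac1*, *Tac2*, *Tacr1*, *Tacr3* and *Mme* lie closer to 0 than their black points. That of *Ece2* is almost unchanged, and that of *Ece1* lies further from 0.

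Only 2 of the 7 genes, *Tacr1* and *Mme*, had groups that did not overlap, both with SP lower. Over all tested genes the groups did not overlap in 18.2%, with SP lower in 9.03%. The same 2 genes were lower in SP in all 3 replicate pairs, as were 16.7% of all tested genes. For these 2 genes this follows from the groups not overlapping and adds no further observation. A negative log2 fold change was found for 6 of the 7 genes and for 49.5% of all tested genes. The median of the 7 genes was -0.20, and that of all tested genes was 0.0015. The 7 genes were chosen with earlier results known, and several of these values rest on library SP 2. Without that library and the block they were -0.029 for *Tac1*, 0.032 for *Tac2*, -0.38 for *Tacr1* and -0.13 for *Tacr3*. For *Mme*, *Ece1* and *Ece2* they were -0.16, 0.065 and -0.031.

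The genes were also compared with each other per kilobase of merged exons, as CPM per kb. In vehicle *Ece2* (6.91 to 8.35) and *Ece1* (6.77 to 7.22) were highest and their ranges overlapped. *Tac2* (1.82 to 2.06) and *Tac1* (1.77 to 1.88) followed, again with overlapping ranges. Then came *Tacr3* with 1.30 to 1.49 CPM per kb, *Mme* with 0.784 to 0.814 and *Tacr1* with 0.336 to 0.397, each with a range apart from its neighbours in this order. The transcripts of both endothelin converting enzymes were thus more abundant per length than those of the ligand precursors, and *Tacr1* was the least abundant transcript of the 7. Which isoforms were used was not measured, and dividing by the longest transcript gave the same order of the means over 6 libraries. In vehicle alone, that length put the mean of *Tac1* (3.15 CPM per kb) just above that of *Tac2* (3.14). The vehicle ranges of *Ece2* (10.25 to 12.39) and *Ece1* (7.45 to 7.94) then did not overlap.

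**Figure D3:**
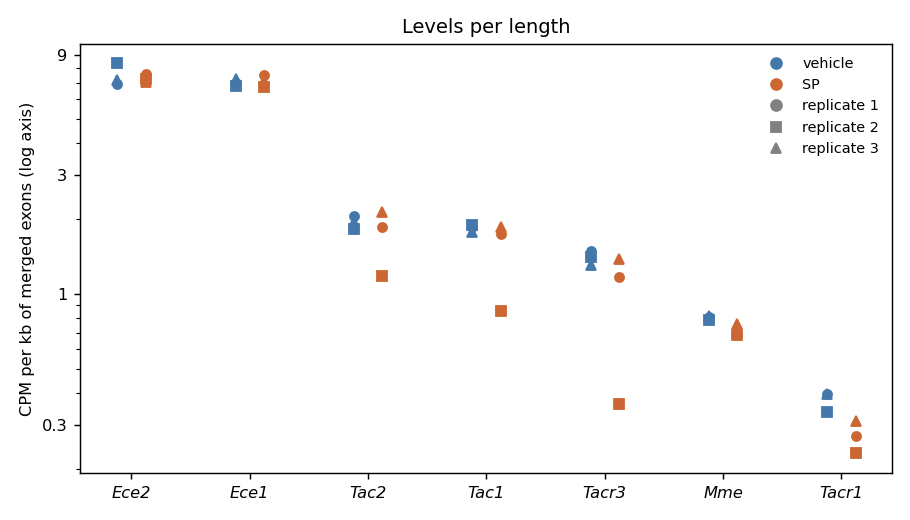
Level per length of the 7 genes in each library, in CPM per kb of merged exons on a log axis, with vehicle in blue, SP in orange and a marker shape for each replicate number. *Ece2* and *Ece1* lie above the other genes in every library, and *Tacr1* is lowest in every library.

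Library SP 2 was the lowest of the 6 libraries for 5 of the 7 genes, namely *Tac1*, *Tac2*, *Tacr1*, *Tacr3* and *Ece1*, and for 21.7% of all tested genes. This count was made after the values had been seen. Other transcripts of sparse neurons were also low there. Of 11 markers of GABAergic interneurons, some of which carry the NK-1R, SP 2 was lowest for 9, and their summed level was 781 CPM in SP 2, 942 and 963 CPM in SP 1 and SP 3, and 899 to 982 CPM in vehicle. *Sst*, the precursor of somatostatin, had 88.9 CPM in SP 2 and 136 to 142 CPM in the other libraries. Of 8 markers of neocortex and subiculum, SP 2 was lowest for 5, with 322 CPM in sum against 361 to 378 CPM elsewhere. No marker of these lists was at 0 in a library.

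The part of cell composition in the low *Tac1*, *Tac2* and *Tacr3* of SP 2 was not tested, and in bulk tissue fewer cells of a type and less RNA per cell cannot be told apart. For *Tacr1*, values in SP 1 and SP 3 were under the vehicle values and the interneuron sum in those libraries was within its vehicle range, a sum to which *Gad1* contributes most. The part of cell composition in the *Tacr1* values was not tested either. Among cortical markers *Cux2*, a factor of upper layer neurons, had 35.2 to 43.1 CPM in vehicle and 20.6 to 31.7 CPM in SP (log2 fold change -0.64, FDR 0.308, edgeR), and *Rorb* had 18.3 to 20.0 CPM in vehicle and 15.1 to 17.7 CPM in SP (FDR 0.430). Whether the tissue that these genes mark bears on *Tacr1* or *Mme* was not tested. *Vip*, made by a class of interneurons, had 13.2 to 15.3 CPM in vehicle and 9.09 to 13.3 CPM in SP (FDR 0.404), and *Cck*, the cholecystokinin precursor, had 169 to 178 CPM in vehicle and 189 to 196 CPM in SP (FDR 0.441). Neither passed the threshold, and the most abundant interneuron and cortical markers were *Gad1* and *Lmo3*.

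Striatal tissue, where *Tac1* is abundant, was also considered. Its 6 markers summed to 45.6 to 54.9 CPM in vehicle and to 42.1, 38.6 and 50.8 CPM in SP 1, 2 and 3, and 0 of 6 was called. Of 6 markers of the medial habenula, a region rich in tachykinins, *Chrnb4* and *Chrna3* were highest in SP 2. They reached 15.1 and 4.86 CPM there against at most 1.39 and 0.687 CPM elsewhere. *Gpr151* was at 0.363 to 0.852 CPM, *Nwd2* at 37.1 to 44.5 CPM and *Slc5a7* at 0.639 to 1.21 CPM in all libraries. SP 2 was also the library with pineal transcripts, and their relation to *Chrnb4* and *Chrna3* was not tested. *Pou4f1*, also in the list, had at most 4 counts (0.170 CPM) in a library, reached in SP 1 and SP 2. *Slc17a6*, a glutamate transporter of thalamus and hypothalamus, had 15.1 to 21.9 CPM in vehicle and 11.3 to 15.1 CPM in SP (FDR 0.308, edgeR). In the same list of 6 markers *Prkcd* had 25.8 to 45.2 CPM, *Tcf7l2* 3.50 to 7.37 CPM and *Lef1* 4.77 to 7.31 CPM, while *Sim1* and *Kiss1* had at most 0.0426 CPM. The part of any of these tissues in the results was not tested.

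**Figure D4:**
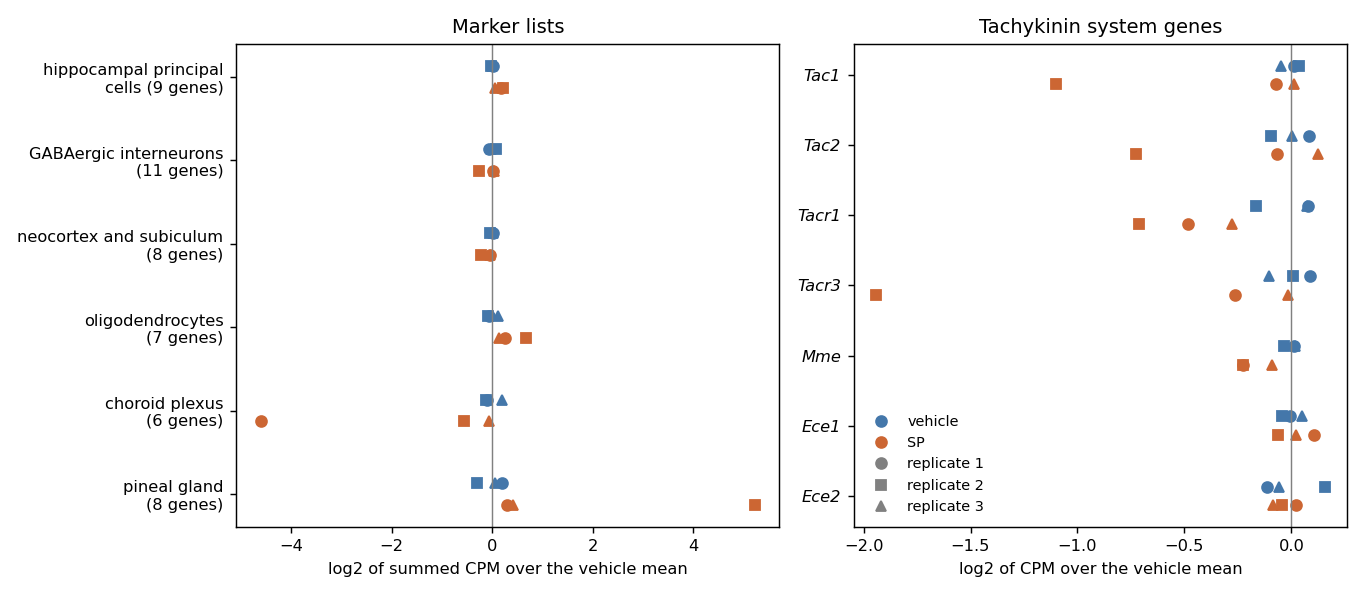
Left, summed CPM of 6 marker lists in each library as log2 over the vehicle mean; right, CPM of the 7 genes on the same kind of scale, with vehicle in blue, SP in orange and a marker shape for each replicate number. SP replicate 2 is low for *Tac1*, *Tac2* and *Tacr3* and high for pineal and oligodendrocyte markers, and SP replicate 1 is low for choroid plexus markers.

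The tachykinin system has further genes that were at or near the detection limit, apart from *Tac4* in library SP 2. *Tac4*, which encodes hemokinin, had 54 counts (2.24 CPM) in SP 2 and at most 1 count in the other libraries. Pineal genes were present in that same library, with *Tph1* at 29.2 CPM and *Gnb3* at 23.3 CPM against at most 0.597 and 0.180 CPM elsewhere, and their relation to *Tac4* was not tested. *Tacr2*, the neurokinin A receptor, had 6, 5 and 6 counts in vehicle and 4, 3 and 2 in SP, too few to be tested. *Mrgprb2*, a mast cell receptor that SP can activate, had at most 3 counts, and *Mrgpra1* had 0 in every library. None of these 4 genes passed the filter on low counts.

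Of 7 other peptidases that can cleave SP, 0 were called and 1 had an unadjusted p under 0.05, with a median log2 fold change of -0.040. That gene was *Ace*, the angiotensin converting enzyme, with 88.1, 86.2 and 109 CPM in vehicle and 16.4, 60.4 and 89.0 CPM in SP 1, 2 and 3. SP 1 was far lower than the other SP libraries, and SP 3 lay within the vehicle range. *Ace* differed by -0.99 on the log2 scale (standard error 0.353, FDR 0.432) and -0.40 without replicate 1. *Ace* is also made by choroid plexus epithelium, whose marker *Ttr* had 125 CPM in SP 1 and 2542 to 4300 CPM in the other libraries, and the part of that tissue in the *Ace* values was not tested. The cytosolic enzymes *Prep*, *Thop1* and *Nln* had log2 fold changes of 0.0075, 0.097 and -0.040. *Anpep*, an aminopeptidase of the cell surface, had 4.41 to 4.97 CPM in vehicle and 3.37 to 4.22 CPM in SP, with groups that did not overlap and an FDR of 0.567.

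Of 4 further relatives of neprilysin, *Mmel1* and *Kel* did not pass the filter on low counts, *Phex* had 0.215 to 0.554 CPM, and *Ecel1* had 2.82 CPM in SP 2 and 3.88 to 11.03 CPM in the other libraries (log2 fold change -0.57, FDR 0.692, and 0.12 without replicate 2). Of 7 neuropeptide processing enzymes, which mature the precursors, 0 were called and 1 had an unadjusted p under 0.05, with a median of -0.044. This was *Pcsk1*, a convertase of neuropeptide precursors, with 28.7, 31.8 and 30.6 CPM in vehicle and 24.6, 22.04 and 28.9 CPM in SP. Its lowest value was again in SP 2, and SP 3 lay within the vehicle range. *Pcsk1* differed by -0.28 on the log2 scale (standard error 0.0941, FDR 0.424) and -0.15 without replicate 2. *Pam*, which forms the amide that SP needs for activity, had 159.5 to 163.5 CPM in vehicle and 147.4, 140.1 and 159.0 CPM in SP, with groups that did not overlap (FDR 0.528), and *Cpe* had 2012 to 2154 CPM in all libraries.

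Of 10 genes of Gq signaling and receptor desensitization, 0 were called, 5 had a log2 fold change above 0 and 5 below, and the median was -0.00022. The range ran from -0.14 for *Grk3*, a kinase that desensitizes receptors, to 0.14 for *Arrb2*, which encodes a beta-arrestin. *Grk3* had 147 to 160 CPM in vehicle and 143, 124 and 148 CPM in SP (unadjusted p 0.0383, FDR 0.465, edgeR). *Gnaq* and *Plcb1*, the Gq subunit and its effector, had log2 fold changes of 0.069 and 0.060.

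For each of the 7 genes the 2 genes with the most similar pattern over the 6 libraries were found by Pearson's r of log2 CPM among 14917 other genes with a mean of at least 1 CPM. These are descriptions, since 6 points in libraries of 2 groups give high r for many genes: between 39 and 519 genes had an r above 0.9. For *Tac1* they were *Adra2a* (r = 0.998) and *Bex4* (0.996), and for *Tac2* *Ccn3* (0.992) and *Adam33* (0.989). For *Tacr3* they were *Plppr3* (0.999) and *Gpr101* (0.997), and for *Tacr1* *Bicd1* (0.994) and *Gm28578* (0.992). *Mme* was closest to *Cxadr* (0.999) and *Dclk1* (0.997), *Ece1* to *Nrbp2* (0.989) and *Pantr2* (0.989), and *Ece2* to *Cdk5rap3* (0.986) and *Bmx* (0.984).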

How the data were processed

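The deposited values are estimated counts per gene, which the authors obtained by trimming reads with TrimGalore, aligning to GRCm38 with STAR and quantifying with Salmon, all within a Nextflow RNAseq pipeline. No scaling for depth or length had been applied, 9.77% of them were not whole, and they were rounded. The annotation release is not given in the sources used here, and positions and lengths came from GENCODE M21 on GRCm38. Columns were matched to mice by the labels. Genes were kept by filterByExpr with the blocked design (minimum count 10, total 15), normalized by TMM and tested with edgeR 4.0.16 in R 4.3.3 (glmQLFit, glmQLFTest, Benjamini-Hochberg adjustment), with the replicate number as a block because the labels call it a batch and the methods adjust for replicates. DESeq2 1.42.0 and limma-voom (limma 3.58.1) were alternatives. The standard error is |log2FC| divided by the square root of F. CPM uses TMM library sizes, and a pseudocount of 0.5 CPM was added for correlations. Across genes, same-numbered mice deviated from their groups with r of 0.012, -0.080 and 0.039. For 3 mice against 3, the smallest p of an exact permutation test is 0.1.

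The 7 genes and the 17 lists of other genes were chosen with earlier results of these data known. Genes were named by rule: the 7 genes, the genes of the tachykinin, peptidase, neprilysin and processing lists, list genes with an unadjusted p under 0.05, the most abundant gene of marker lists, and the 2 closest patterns. The pineal list of 8 genes, *Sst*, *Gpr151*, *Slc5a7*, *Pou4f1*, *Sim1*, *Kiss1*, *Tcf7l2* and *Lef1* were chosen after values were seen. So were *Hdc*, *Chrnb4*, *Arrb2*, *Gnaq*, *Plcb1* and the mast cell proteases. Some list genes are not reported here. The scripts were tested on simulated data. P-values set a difference against the spread between these mice, which edgeR estimated with information from all tested genes.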

Additional observations from a re-analysis of the deposited data

How the results depend on the processing

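The number of the 7 genes called stayed at 0 under each alternative run, and the number with groups that did not overlap stayed at 2 with raw library sizes. That number was also 2 without library SP 2, but leaving out a library could not have lowered it. Log2 fold changes of *Tac1*, *Tacr1*, *Tacr3* and *Mme* kept their sign in all 12 alternatives, from -0.59 to -0.010, -0.56 to -0.38, -1.06 to -0.13 and -0.22 to -0.15. Signs turned for *Ece1* without replicate 1 (-0.021), *Ece2* without replicate 2 (0.054) and *Tac2* without library SP 2 (0.032). Without replicate 3, *Tac1* had -0.59 and *Tac2* -0.38. Without each replicate *Ece1* ranged from -0.021 to 0.045 and *Ece2* from -0.12 to 0.054. Without the replicate block *Tacr1* had -0.48 and *Tacr3* -0.53, and the block changed no call among the 7 genes. The number of genes called among all tested, 5, was 2 without the replicate block, 2 with limma-voom, 384 with no filter on low counts, 0 with at least 10 counts in every library and 0 at FDR < 0.05. It was 36 with DESeq2 and the block, 133 with DESeq2 without it, and 9 to 36 without each replicate. The causes were not tested. DESeq2 gave no FDR for 4 of the 7 genes with the block (*Tac1*, *Tac2*, *Tacr1* and *Tacr3*) and for 2 without it (*Tac2* and *Tacr1*). These genes could not be called in those fits. Per kb of the longest transcript, levels were 10.97 for *Ece2*, 7.75 for *Ece1*, 2.96 for *Tac2*, 2.85 for *Tac1*, 1.09 for *Mme* and 0.418 for *Tacr1*, where merged exons gave 7.40, 7.04, 1.83, 1.66, 0.756 and 0.323. Depth limits *Tacr1* and *Tac2*, each with at most 74 counts in a library.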

Other observations

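Mast cells and microglia, the other cells on which SP can act, were read from 6 markers each. Mast cell proteases were barely detected, since *Cpa3*, *Cma1* and *Tpsb2* did not pass the filter on low counts and *Mcpt4* had 0.0415 to 0.511 CPM. The other members of that list, *Kit* and *Hdc*, had 93.3 to 104 CPM and 2.79 to 3.87 CPM. The microglial markers summed to 246 to 261 CPM in vehicle and 238 to 259 CPM in SP, and 0 of 6 had an unadjusted p under 0.05 or were called. The 6 endothelial markers, from the cells at the blood-brain barrier, summed to 188 to 195 CPM in vehicle and 196 to 202 CPM in SP, also with 0 called and 0 at an unadjusted p under 0.05 by edgeR. Of 6 astrocyte markers, *S100b* had 74.4 to 77.4 CPM in vehicle and 79.8 to 94.0 CPM in SP (log2 fold change 0.19, FDR 0.436). The 7 oligodendrocyte markers all had log2 fold changes above 0, from 0.28 to 0.39, with 5 at an unadjusted p under 0.05 (among them *Cnp* and *Mobp*) and 0 called, and each was highest in SP 2.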
